A study of Mus musculus with 7 samples.

Results

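The early B-cell factors Ebf1, Ebf2, Ebf3 and Ebf4 were followed as a family in single nuclei of the posterolateral cortical amygdala. They were chosen by symbol and are 4 of the 32285 genes of the count table. The tissue came from the anterior domain (aplCoA) and the posterior domain (pplCoA) of male C57BL6J mice aged 8 weeks, with no treatment that set the domains apart, and all animals had been housed alone without sensory stimulation on the day before. Each replicate was a pool of tissue from several mice, so the animals of a pool cannot be told apart, and each domain had 3 replicates. UMIs of both libraries made from aplCoA replicate 1 were added together. The family was proposed with the domain difference of Ebf1 in glutamatergic neurons already known, and its rule also named cell classes, use of the glutamate transporters Slc17a6 (VGluT2) and Slc17a7 (VGluT1), and co-detection, so values of these kinds are given as descriptions without a test.

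EBF proteins are helix-loop-helix transcription factors that bind DNA as dimers, and the best known role is that of Ebf1 in committing blood progenitors to the B-cell lineage. Members of the family are also known as factors of neuronal differentiation and of olfactory sensory neurons, and Ebf2 as a factor of brown fat. The zinc-finger proteins Zfp423 and Zfp521 are known to bind EBF proteins.

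In the GENCODE annotation of mouse build GRCm38, which shares its coordinates with the mm10 build of the files, Ebf1 (ENSMUSG00000057098) lies at chr11:44617317-45008091 on the plus strand and Ebf2 (ENSMUSG00000022053) at chr14:67233292-67430918 on the plus strand. Ebf3 (ENSMUSG00000010476) lies at chr7:137193673-137314445 on the minus strand and Ebf4 (ENSMUSG00000053552) at chr2:130295169-130370481 on the plus strand. Exons cover 2.50% of the span of Ebf1, 3.51% of Ebf2, 7.64% of Ebf3 and 4.30% of Ebf4, so most of each span is intron, and intronic reads were counted. No stretch of 50 bases was shared between the annotated transcripts of any pair of members. Levels are compared within a member and not between members, since the spans differ in length.

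Promoter sequences from RefSeq (GRCm38.p6, 250 bases before to 50 after a start) were held for 3 members, Ebf1, Ebf3 and Ebf4. The starts of Ebf1 are shown because this gene carried most of the family's UMIs, and that of Ebf3 because it held the core of the EBF motif. Capitals mark matches to CCCNNGGG, which reads the same on both strands.
Ebf1 first start, chr11:44617850-44618149, plus strand: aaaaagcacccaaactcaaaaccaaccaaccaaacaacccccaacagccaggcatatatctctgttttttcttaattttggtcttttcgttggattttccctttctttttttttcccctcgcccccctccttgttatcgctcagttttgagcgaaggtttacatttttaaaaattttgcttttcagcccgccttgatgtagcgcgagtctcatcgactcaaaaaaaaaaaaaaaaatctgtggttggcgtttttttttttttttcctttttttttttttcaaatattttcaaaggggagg
Ebf1 second start, chr11:44619978-44620277, plus strand: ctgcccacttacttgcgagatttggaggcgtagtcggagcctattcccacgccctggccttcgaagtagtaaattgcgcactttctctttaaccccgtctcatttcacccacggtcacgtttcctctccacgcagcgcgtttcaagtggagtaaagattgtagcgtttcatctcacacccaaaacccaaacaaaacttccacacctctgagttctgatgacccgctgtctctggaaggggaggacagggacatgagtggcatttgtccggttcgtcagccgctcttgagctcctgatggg
Ebf3, chr7:137314396-137314695, minus strand: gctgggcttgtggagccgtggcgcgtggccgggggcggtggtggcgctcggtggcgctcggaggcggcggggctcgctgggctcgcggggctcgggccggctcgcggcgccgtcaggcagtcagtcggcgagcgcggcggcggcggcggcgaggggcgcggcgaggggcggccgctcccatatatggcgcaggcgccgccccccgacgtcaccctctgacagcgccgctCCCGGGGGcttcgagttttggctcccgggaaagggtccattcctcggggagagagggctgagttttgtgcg
GC content was 36.7% at the first start of Ebf1, 53.0% at the second, 77.0% at Ebf3 and 74.3% at Ebf4, where the median of all 32851 promoters was 52.7%. The Ebf3 promoter had 1 match to CCCNNGGG and the other 3 had 0, and 13.7% of all promoters held it.

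After filters, 46412 nuclei remained of 52201 barcodes with at least 1000 genes. Total counts of unique molecular identifiers (UMIs) per library ranged from 50812605 to 129624583. Pairs of libraries shared between 5 and 37 of their barcodes with at least 1000 genes, and the 2 libraries of aplCoA replicate 1 shared 23. Nuclei were clustered with the members left out of the genes used, and each cluster was called by the class whose listed markers it carried, a name that means likeness to that class. In each of the 13 classes, every listed marker was higher than in the remaining nuclei. The endothelial class was mixed, as 41 of its 59 nuclei had a UMI of Gad1 or Gad2, the enzymes that make GABA.

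Each member had a class pattern of its own. Over all nuclei, Ebf1 had 22651 UMIs in 4296 nuclei (9.26%), Ebf2 3144 UMIs in 836 nuclei (1.80%), Ebf3 1599 UMIs in 1013 nuclei (2.18%) and Ebf4 7802 UMIs in 6452 nuclei (13.9%). Glutamatergic neurons held 74.2% of the UMIs of Ebf1 and 87.7% of those of Ebf2. They were also the largest and deepest class, with 19884 of the 46412 nuclei at a median of 12258 UMIs. A large share of a member's UMIs in that class is therefore not read as enrichment, and levels per UMI are given below. Microglia held 69.6% of the UMIs of Ebf3, glutamatergic neurons 15.2% and Cajal-Retzius neurons 208 of its UMIs. Ebf4 was spread, with 62.3% in glutamatergic neurons, 12.5% in GABAergic neurons, 11.8% in astrocytes and 9.16% in oligodendrocyte precursors (OPCs).

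**Figure D1:**
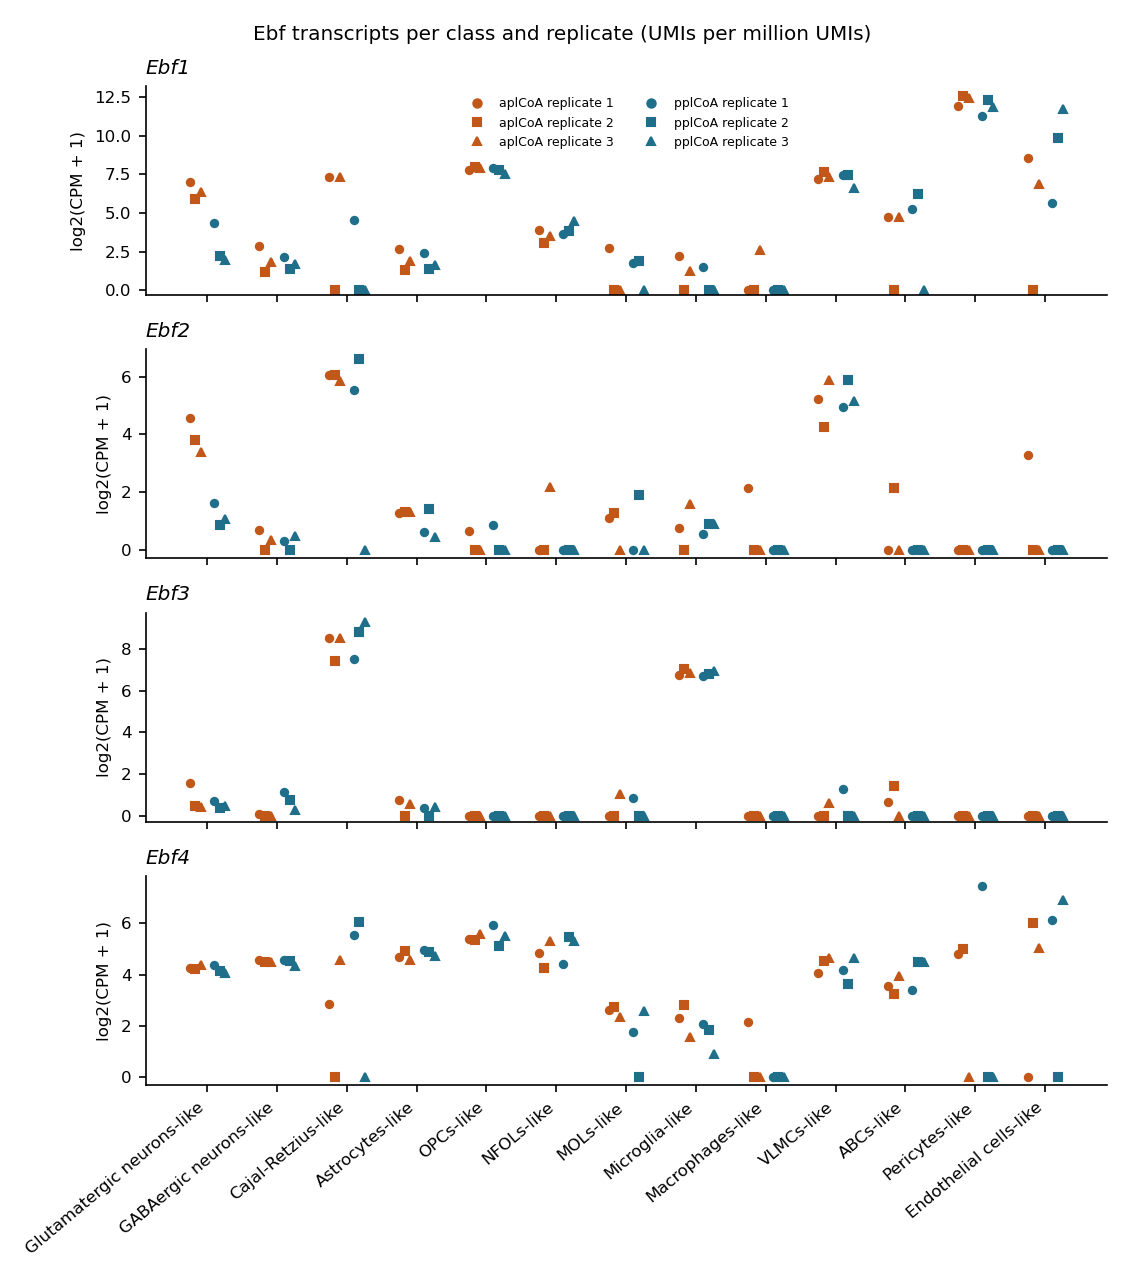
Level of each member, as log2(CPM + 1), in the 13 classes; each point is 1 replicate, orange for aplCoA and blue for pplCoA, with a shape for each replicate number. Ebf1 is highest in pericytes, Ebf3 stands out in Cajal-Retzius neurons and microglia, and Ebf4 is lowest in macrophages, microglia and MOLs.

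Levels are given per class and replicate as UMIs of the gene per 1000000 UMIs of those nuclei (CPM). Ebf1 was highest in pericytes, the contractile cells on capillary walls, where 40 of 40 nuclei held at least 1 UMI. Its level in pericytes was 3878, 6190.2 and 5522 CPM in aplCoA and 2459, 5094 and 3711 CPM in pplCoA, with between 1 and 14 nuclei a replicate. The ranges of the domains overlapped, and pericytes were not tested because most replicates had fewer than the 10 nuclei required. With nuclei classed by the UMIs of their own markers in place of clusters, the mean was 829.4 CPM.

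In OPCs, which give rise to myelinating cells, Ebf1 was at 224, 256 and 239 CPM in aplCoA and 244, 216 and 188 CPM in pplCoA. In newly formed oligodendrocytes (NFOLs) the 6 replicates lay between 7.29 and 21.2 CPM with a median of 12.5 CPM, and in mature oligodendrocytes (MOLs) between 0 and 5.81 CPM with a median of 1.20 CPM. In each of the 6 replicates the order was thus OPCs above NFOLs above MOLs, the order in which these cells mature. With nuclei classed by their own markers, the mean was 77.5 CPM in NFOLs and 201 CPM in OPCs. A dividing cluster of 60 OPCs, led by the topoisomerase gene Top2a, held 130.0 CPM of Ebf1 (exact 95% Poisson interval 94.8 to 174 CPM, for counting error only), beside 230.3 CPM in the other 3581 OPCs (223 to 238 CPM). It was below the other OPCs in each of the 6 replicates.

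In vascular leptomeningeal cells (VLMCs), the fibroblasts of the meninges, Ebf1 was at 146, 199.7 and 163 CPM in aplCoA and 178, 176 and 98.8 CPM in pplCoA. These cells fell into 2 clusters that carried unlike amounts. In the cluster led by Bmp6 and Dcdc2a (1059 nuclei), the replicates lay between 242 and 361 CPM with a median of 337 CPM. In the cluster led by Ptgds and Slc6a20a (797 nuclei), they lay between 3.36 and 41.4 CPM with a median of 15.0 CPM, so the ranges did not overlap. Ebf2 had the same order, at 25.5 to 125 CPM in the Bmp6 cluster and 0 to 13.4 CPM in the Ptgds cluster.

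By its mean level, Ebf1 ran from pericytes through endothelial cells, OPCs, VLMCs, Cajal-Retzius neurons, glutamatergic neurons, arachnoid barrier cells (ABCs), NFOLs, astrocytes, GABAergic neurons, MOLs and microglia to macrophages. Neighbours in this order had overlapping replicate ranges with 1 exception, NFOLs above astrocytes. The 6 replicates reached at most 5.40 CPM in astrocytes and 6.45 CPM in GABAergic neurons. The endothelial place rested on few nuclei, since the mean of 819 CPM included 2 nuclei of pplCoA replicate 3 at 3449.5 CPM and 1 replicate at 0, and the level pooled over replicates was 275 CPM. In that class, the 18 nuclei without a Gad1 or Gad2 UMI held 823 CPM of Ebf1 and the 41 with one held 112 CPM.

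Ebf3 had high levels in 2 classes. In Cajal-Retzius neurons, the reelin-secreting cells of the cortical surface, it was at 376, 172 and 371 CPM in aplCoA and 184, 452 and 631 CPM in pplCoA, over 136 nuclei in all, and 82 of these (60.3%) had a UMI. In microglia, the resident immune cells of the brain, it was at 106, 132 and 115 CPM in aplCoA and 103, 111 and 124 CPM in pplCoA. Every microglial value lay below the lowest Cajal-Retzius value, and every glutamatergic value, at 1.99 CPM or less, below the lowest microglial one. With nuclei classed by their own markers, the mean was 32.6 CPM in microglia and 164 CPM in Cajal-Retzius neurons. Macrophages, the other myeloid class, had a UMI of Ebf3 in 0 of 261 nuclei, which allows a share of nuclei with a UMI of up to 1.15% at their median depth of 2615 UMIs. In OPCs it was 0 of 3641 nuclei, which allows up to 0.0824%. These limits are on detection at that depth, not on the share of cells that express the gene.

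To compare shares of nuclei with a UMI at 1 depth, each nucleus was thinned to 2000 UMIs and shallower nuclei were left out (389 of 2805 microglia and 7 of 136 Cajal-Retzius neurons). Ebf3 was then seen in 17.8% of microglia and 46.4% of Cajal-Retzius neurons, against 0.0620% of MOLs, a class taken as background. Without thinning these shares were 27.6%, 60.3% and 0.131%, at median depths of 3182, 3828 and 2955.5 UMIs.

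Ebf1 was seen in 32.3% of thinned OPCs and 17.7% of thinned VLMCs, against 0.327% of microglia as background. The unthinned shares were 48.8%, 22.6% and 0.570%, at median depths of 3950, 3321.5 and 3182 UMIs. Ebf2 was seen in 4.39% of thinned VLMCs and 6.74% of thinned Cajal-Retzius neurons, against 0.168% of microglia. The background classes were ones with a low level of the member, so these shares are descriptions and no enrichment is read from the comparison.

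Ebf2 in Cajal-Retzius neurons rested on 36 UMIs, with replicates between 0 and 96.9 CPM and a median of 60.7 CPM. In VLMCs Ebf2 was at 36.0, 18.3 and 58.2 CPM in aplCoA and 29.7, 58.2 and 34.3 CPM in pplCoA, with a mean of 39.1 CPM, or 64.8 CPM with nuclei classed by their own markers. OPCs, in which Ebf1 was high, held 5 UMIs of Ebf2 in 3641 nuclei, and the 40 pericytes held 0.

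Ebf4 was seen in many classes, at levels that differed between them. Its replicates lay between 15.6 and 19.9 CPM in glutamatergic neurons, between 19.1 and 23.0 CPM in GABAergic neurons, between 22.5 and 30.5 CPM in astrocytes and between 33.3 and 60.0 CPM in OPCs. They were lower in MOLs, between 0 and 5.65 CPM, in microglia, between 0.878 and 6.01 CPM, and in macrophages, between 0 and 3.45 CPM. NFOLs lay between 18.2 and 43.6 CPM and did not overlap with MOLs, so Ebf4, like Ebf1, was lower in the mature oligodendrocytes than in both earlier stages.

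In glutamatergic neurons, Ebf1 and Ebf2 were higher in every aplCoA replicate than in any pplCoA replicate. Ebf1 was at 127, 59.4 and 83.3 CPM in aplCoA and 19.3, 3.72 and 3.00 CPM in pplCoA, and pplCoA replicate 1 stood above the other two. Ebf2 was at 22.4, 12.8 and 9.50 CPM in aplCoA and 2.05, 0.807 and 1.11 CPM in pplCoA. The log2 difference of aplCoA over pplCoA was 3.21 (SE 0.56) for Ebf1 and 3.35 (SE 0.36) for Ebf2. Without pplCoA replicate 1 it was 4.64 for Ebf1 and 3.90 for Ebf2. These are 2 of the 4 members, and 14.9% of the 20905 genes tested in this class were called by edgeR at an adjusted p under 0.05, but nothing is read from this count, because the contrast was known when the family was chosen.

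Ebf3 and Ebf4 overlapped between domains. Ebf3 was at 1.99, 0.368 and 0.312 CPM in aplCoA and 0.610, 0.288 and 0.393 CPM in pplCoA, with a log2 difference of 1.07 (SE 0.63) that turned to -0.47 without aplCoA replicate 1. Ebf4 was at 18.3, 17.4 and 19.9 CPM in aplCoA and 19.5, 16.8 and 15.6 CPM in pplCoA, with a log2 difference of 0.01 (SE 0.10, 95% interval -0.22 to 0.24).

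**Figure D2:**
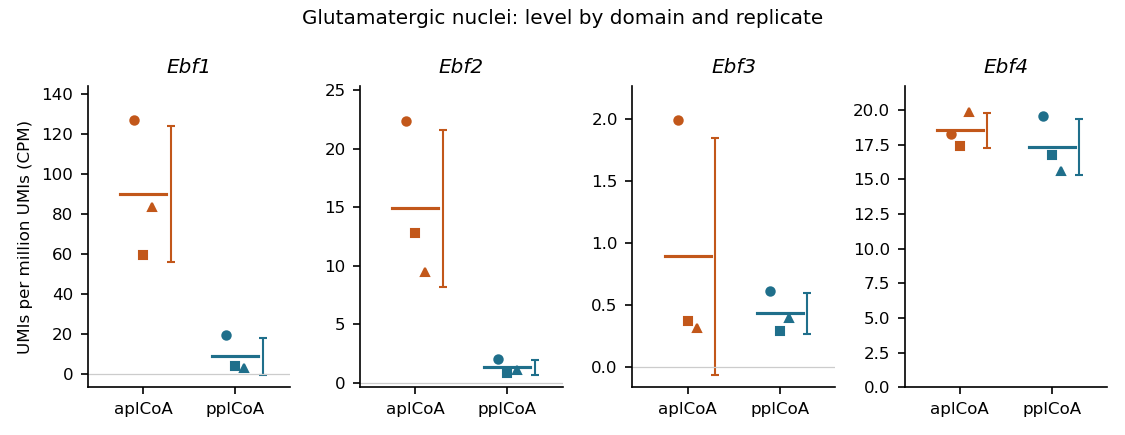
CPM of each member in glutamatergic nuclei, by domain; points are replicates, horizontal lines means and vertical bars SD (n = 3). The aplCoA replicates of Ebf1 and Ebf2 lie above all pplCoA replicates, while those of Ebf3 and Ebf4 overlap.

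Glutamatergic nuclei were then clustered again without the members and without the 3110 genes that differed between domains, which gave 13 clusters. Ebf1, Ebf2 and Ebf3 each peaked in a different one. Cluster 3, led by Meis1, Pbx3, Foxp2 and Rxfp1, held 2432 nuclei and 80.7% of the glutamatergic UMIs of Ebf1, at 533 CPM over all replicates. Cluster 9, led by E130114P18Rik and Npsr1, held 657 nuclei and 75.5% of the glutamatergic UMIs of Ebf2, at 301 CPM, with Ebf1 at 212 CPM. Cluster 4, led by Vwa5b1 and Adarb2, held 2362 nuclei and 83.1% of the glutamatergic UMIs of Ebf3, at 9.06 CPM, with Ebf1 at 44.5 CPM and Ebf2 at 8.12 CPM. Ebf4 lay between 10.2 and 39.3 CPM in the 13 clusters. Another of the leading genes of cluster 9, 4930438E09Rik, lies within the span of Ebf2 on the opposite strand. Leading genes were read from all genes but the members, including those left out of the clustering. Whether transcripts from that span shaped the clusters was not tested.

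Transporter use differed between these clusters. Slc17a6 stood at 171 CPM and Slc17a7 at 14.5 CPM in cluster 3. They stood at 103 and 166 CPM in cluster 9, and at 113 and 79.4 CPM in cluster 4. The cluster richest in Ebf1 was thus one with mainly Slc17a6, and the other 2 carried both transporters. Cluster 11, of 76 nuclei, had more Slc17a6 than cluster 3, at 296 CPM with Slc17a7 at 93.5 CPM, but Ebf1 at only 3.84 CPM.

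Few pplCoA nuclei fell in clusters 3 and 9, and most of those came from replicate 1. In cluster 3, Ebf1 was at 602, 330.2 and 492 CPM in aplCoA and at 511 CPM in pplCoA replicate 1, which lay within the aplCoA range. The other pplCoA replicates had 11 and 6 nuclei in this cluster and 0 UMIs of Ebf1. In cluster 9, Ebf2 was at 360.3, 188 and 213 CPM in aplCoA and at 183 CPM in the 35 nuclei of pplCoA replicate 1, just below the lowest aplCoA value. Cluster 9 also held Ebf1, at 233, 138 and 219.9 CPM in aplCoA and at 102 CPM in pplCoA replicate 1.

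Cluster 4 had nuclei from every replicate, 19 of them from pplCoA replicate 3. Ebf3 was there at 13.8, 3.21 and 1.93 CPM in aplCoA and 9.17, 2.81 and 24.5 CPM in pplCoA, so the domains overlapped. The value of 24.5 CPM rested on 4 UMIs in 1 nucleus. Ebf1 was there at 51.8, 59.5 and 42.4 CPM in aplCoA and 18.6, 16.9 and 6.12 CPM in pplCoA, each aplCoA replicate above each of pplCoA. The last 2 values rested on 6 UMIs and 1 UMI. With genes that differ between domains kept for clustering, the cluster led by Vwa5b1 did not hold this order. It had 1 nucleus of pplCoA replicate 2, at 98.1 CPM of Ebf1, and 0 of replicate 3.

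The share of glutamatergic nuclei in cluster 3 was 22.2%, 14.8% and 15.8% in aplCoA and 4.30%, 0.463% and 0.269% in pplCoA. For cluster 9 it was 6.52%, 4.02% and 3.57% in aplCoA and 0.984%, 0.0421% and 0% in pplCoA, and for cluster 4 it was 17.6%, 13.3% and 16.2% in aplCoA and 10.0%, 1.64% and 0.852% in pplCoA. Hence pplCoA replicate 1, which had the highest Ebf1 and Ebf2 of its domain, also had the largest shares of these clusters.

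Clusters 3, 4 and 9 were the ones that held at least 30 CPM of Ebf1, Ebf2 or Ebf3, a choice made from the members' own levels, so what remains without them is a description. With these clusters left out, Ebf1 was at 4.28, 9.16 and 3.64 CPM in aplCoA and 1.66, 3.60 and 2.99 CPM in pplCoA. Ebf2 was at 2.19, 8.05 and 2.21 CPM in aplCoA and 0.944, 0.790 and 1.12 CPM in pplCoA. For Ebf1 the lowest value of aplCoA and the highest of pplCoA nearly met, and aplCoA replicate 2 stood highest for both genes. This replicate held 17.7 CPM of Ebf1 and 32.2 CPM of Ebf2 in cluster 1, where the next highest replicate held 4.02 and 4.80 CPM.

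**Figure D3:**
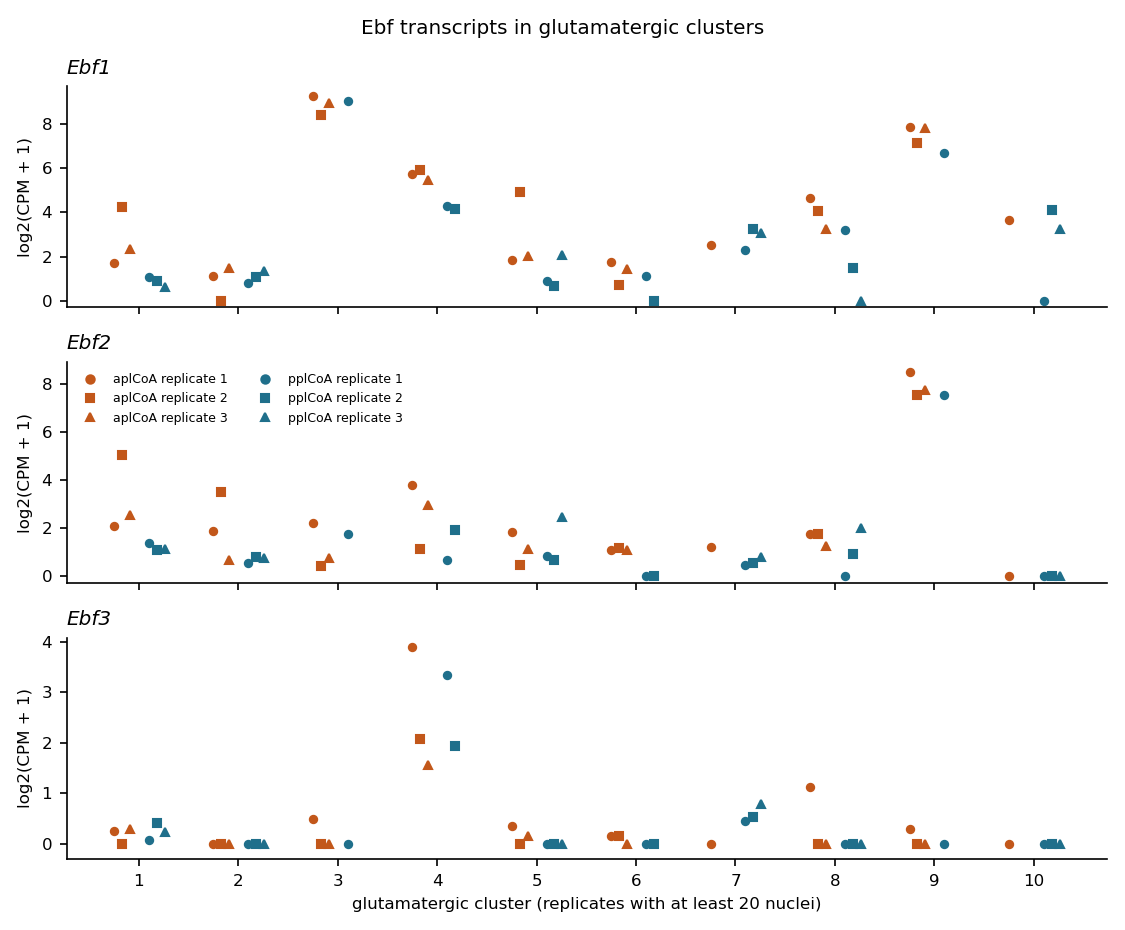
Level of Ebf1, Ebf2 and Ebf3, as log2(CPM + 1), in the 10 glutamatergic clusters with at least 400 nuclei; points are replicates with at least 20 nuclei in the cluster, orange for aplCoA and blue for pplCoA. Ebf1 peaks in clusters 3 and 9, Ebf2 in cluster 9 and Ebf3 in cluster 4, and pplCoA replicate 1 gives the only pplCoA points in clusters 3 and 9.

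Within cluster 3 Ebf1 was not evenly spread. Of 2432 nuclei, 1578 had 0 UMIs of it, 59 had 1, 252 had 2 to 9 and 543 had 10 or more, up to 74. The last kind carried 89.3% of its UMIs in the cluster. The median nucleus with an Ebf1 UMI had 9201 UMIs in all and the median nucleus without had 9845.5.

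Of the 657 nuclei of cluster 9, 353 had 0 UMIs of Ebf2, 22 had 1, 219 had 2 to 9 and 63 had 10 or more, which carried 43.3% of its UMIs there. In OPCs, 850 of 3641 nuclei had 1 UMI of Ebf1, 924 had 2 to 9 and 1 had 10 or more. In microglia, nuclei with Ebf3 held 1.44 UMIs of it on average. In pericytes, the shallowest of these at a median of 2190 UMIs a nucleus, 22 of 40 nuclei had 10 or more UMIs of Ebf1. Glutamatergic cluster 4 had 20 such nuclei of 2362.

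The nuclei of cluster 3 with 10 or more UMIs of Ebf1 were set beside those with 0, in the 4 replicates with at least 10 nuclei of each kind (the 3 of aplCoA and pplCoA replicate 1, in this order). Zfp423, which encodes an EBF-binding zinc finger, was at 130.4, 108, 116 and 207 CPM in the former and at 34.6, 27.3, 26.1 and 24.9 CPM in the latter. The ranges did not overlap. Slc17a6 was also higher in each of the 4, at 226, 211, 225 and 155 CPM against 140.1, 172, 154 and 110.1 CPM.

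Homeobox genes of the cluster differed less, with Meis1 at 522 CPM against 579.6 CPM and Pbx3 at 970.0 CPM against 880.2 CPM over all replicates. Zfp521 was at 39.9, 69.7, 59.2 and 13.1 CPM against 17.9, 40.4, 34.7 and 24.9 CPM, which is higher with Ebf1 in aplCoA and lower in pplCoA replicate 1. These are descriptions of nuclei split by Ebf1 itself, with no test.

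In cluster 9, 63 nuclei had 10 or more UMIs of Ebf2, and 45 of them came from aplCoA replicate 1. They held 145 CPM of Zfp521 and 172 CPM of Zfp423, against 4.85 and 51.4 CPM in the 353 nuclei with 0. Ebf1 was at 432 CPM in the former and at 104 CPM in the latter. Split by Ebf1 instead, cluster 9 had Zfp423 at 92.6 CPM in the 46 nuclei with 10 or more UMIs and at 96.7 CPM in those with 0, so Zfp423 was not higher with Ebf1 there, while Zfp521 was at 121 CPM against 21.0 CPM.

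**Figure D4:**
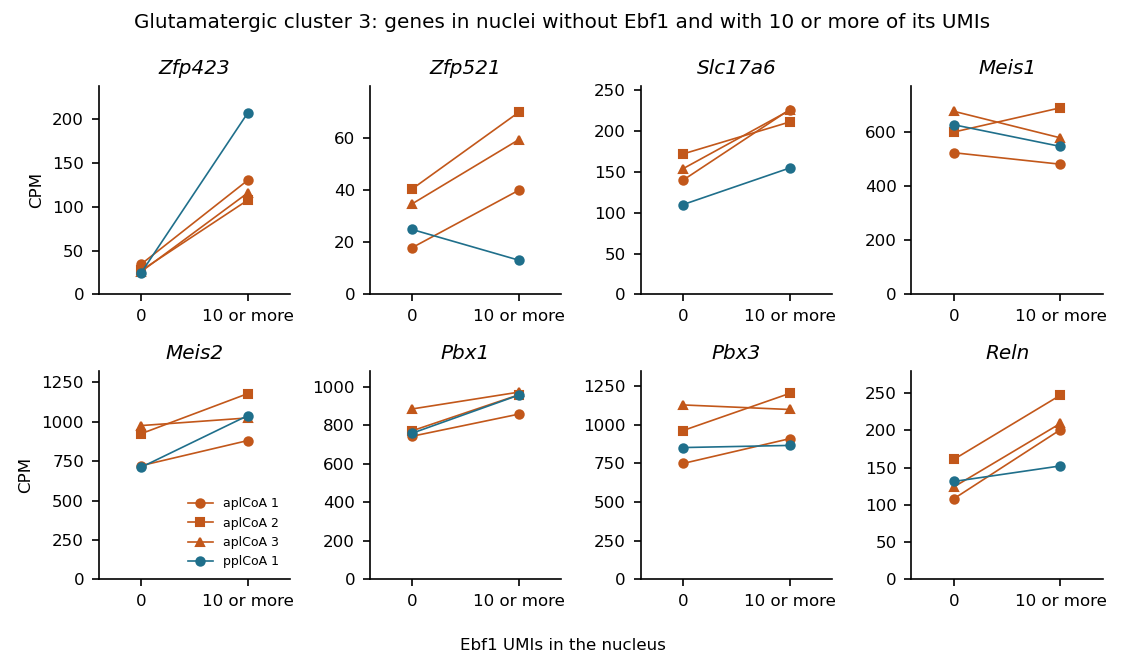
CPM of 8 genes in the nuclei of glutamatergic cluster 3 with 0 UMIs of Ebf1 (left) and with 10 or more (right); each line joins the 2 values of 1 replicate, orange for aplCoA and blue for pplCoA. Zfp423 goes from 24.9 to 34.6 CPM on the left to 108 to 207 CPM on the right, while the lines of Meis1 and Pbx3 run in both directions.

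Over all glutamatergic nuclei, Ebf1 was highest in those with Slc17a6 alone in 4 of the 6 replicates. In nuclei with UMIs of Slc17a6 and none of Slc17a7 (2531 nuclei), Ebf1 was at 473, 265 and 385 CPM in aplCoA and 298, 7.41 and 0 CPM in pplCoA. In nuclei with Slc17a7 alone (12784 nuclei), it was at 15.3, 11.8 and 6.80 CPM in aplCoA and 2.63, 3.52 and 2.86 CPM in pplCoA. Nuclei with both (2548 nuclei) were at 109, 50.8 and 59.5 CPM in aplCoA and 22.7, 3.38 and 4.37 CPM in pplCoA. Each aplCoA replicate had the order Slc17a6 alone, both, Slc17a7 alone, and in pplCoA only replicate 1 did. In pplCoA replicates 2 and 3 only 34 and 24 nuclei had Slc17a6 alone, too few to place that group. The 2021 nuclei with a UMI of neither were at 205, 137 and 117 CPM in aplCoA and 47.8, 8.03 and 3.83 CPM in pplCoA.

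Ebf2 had another order in aplCoA. Nuclei with both transporters were highest in each aplCoA replicate, at 52.7, 22.2 and 21.6 CPM in aplCoA and 0.145, 0.338 and 0.485 CPM in pplCoA. Slc17a6 alone gave 20.3, 5.30 and 13.6 CPM in aplCoA and 7.61, 0 and 0 CPM in pplCoA, where the values of 0 came from 34 and 24 nuclei. Slc17a7 alone gave 13.7, 12.2 and 5.11 CPM in aplCoA and 1.76, 0.864 and 1.12 CPM in pplCoA. Ebf4 lay between 15.7 and 30.9 CPM in nuclei with either transporter alone.

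With each nucleus thinned to 2000 UMIs, the mean of Ebf1 over the 6 replicates was 223 CPM with Slc17a6 alone and 13.2 CPM with Slc17a7 alone, beside 238 and 7.16 CPM unthinned. The mean of Ebf2 was 14.02 CPM with Slc17a6 alone and 9.85 CPM with Slc17a7 alone, beside 7.80 and 5.79 CPM unthinned. Thinning also moved nuclei between these groups, so the thinned and unthinned means are not of the same nuclei. On average 1345.8 thinned nuclei had Slc17a6 alone, 6189.1 Slc17a7 alone, 218.85 both and 12067.2 neither. In aplCoA replicate 2, thinned Ebf2 was at 21.4 CPM for Slc17a6 alone and 20.8 CPM for both. The latter rested on 19.1 nuclei on average, so no order is read from these 2 values.

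Ebf1 and Ebf2 were found together in some nuclei. Of 638 glutamatergic nuclei with an Ebf2 UMI, 225 also had one of Ebf1 (35.3%, exact 95% binomial interval 31.6% to 39.1%, for counting error only), beside 8.96% of all glutamatergic nuclei. Nearly all of these came from aplCoA, where the replicates had 156 of 377, 22 of 63 and 39 of 96 nuclei, against 5 of 53, 2 of 25 and 1 of 24 in pplCoA. Among all glutamatergic nuclei, Ebf1 was seen in 1043 of 6622, 127 of 1567 and 357 of 3531 in aplCoA. In pplCoA it was seen in 141 of 3556, 66 of 2377 and 47 of 2231. Of 132 with Ebf3, 30 had Ebf1 (22.7%, interval 15.9% to 30.8%) and 4 had Ebf2 (3.03%). Of 3868 with Ebf4, 278 had Ebf1 (7.19%, interval 6.39% to 8.05%), no higher than over all glutamatergic nuclei.

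Of the 225 glutamatergic nuclei with both Ebf1 and Ebf2, 170 lay in cluster 9. There 170 of 304 nuclei with Ebf2 had Ebf1 (55.9%), where 40.8% of the cluster's nuclei had it. In cluster 3, 12 of 854 nuclei with Ebf1 had Ebf2, so that Ebf1 was mostly seen there without Ebf2. With nuclei thinned to 2000 UMIs, 30.4% of those with Ebf2 had Ebf1, where 5.61% of all had it. For Ebf3 the thinned share with Ebf1 was 13.5% (interval 5.08% to 27.7%), which included the share of all nuclei. Unthinned, 27 of the 30 nuclei with Ebf1 and Ebf3 lay in cluster 4. There 27 of 103 nuclei with Ebf3 had Ebf1 (26.2%, interval 18.0% to 35.8%), where 12.3% of the cluster's nuclei had it. Without aplCoA replicate 1, the unthinned share of Ebf2 nuclei with Ebf1 was 26.4% of 261 nuclei.

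Pairs were also counted in other classes. In VLMCs, 58 of 110 nuclei with Ebf2 had Ebf1 (52.7%), where 22.6% of all had it. The Bmp6 cluster held 101 of these 110 nuclei, and 36.9% of its nuclei had Ebf1. In OPCs, 317 of 626 nuclei with Ebf4 had Ebf1 (50.6%), close to the 48.8% of all OPCs. In Cajal-Retzius neurons, 7 of 16 nuclei with Ebf2 and 7 of 14 with Ebf1 had Ebf3, beside 60.3% of all these nuclei.

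Outside glutamatergic neurons no member with at least 30 UMIs was called between domains in the classes made from clusters. The 8 other classes with at least 10 nuclei in every replicate were compared by edgeR on summed UMIs, and 15 of 32 pairs of member and class had the 30 UMIs needed for a test. By the quasi-likelihood test, 0 of these 15 had an adjusted p under 0.05 and 0 an unadjusted p under 0.05, and the likelihood ratio test and DESeq2 also called 0. With nuclei classed by the UMIs of their own markers in place of clusters, 4 were called, which were Ebf1 in astrocytes, microglia and MOLs and Ebf2 in microglia. That classing called 134 of 17680 genes in astrocytes, 857 of 16738 in microglia and 1058 of 14454 in MOLs. With clusters, the share of all genes called was 6.34% in GABAergic neurons, 3.96% in OPCs, 1.18% in MOLs, 0.426% in astrocytes, 0.0242% in VLMCs, 0.0189% in ABCs and 0% in microglia and in NFOLs.

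Intervals differed in width. Ebf1 in OPCs had a log2 difference of 0.08 (SE 0.10, 95% interval -0.13 to 0.29, edgeR adjusted p = 0.762). Ebf3 in microglia had a log2 difference of 0.03 (SE 0.14, 95% interval -0.27 to 0.33). In VLMCs the log2 difference was 0.15 for Ebf1 (95% interval -0.26 to 0.56) and -0.09 for Ebf2 (95% interval -0.81 to 0.62). Each of these intervals included 0, and those of VLMCs were the wider.

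Ebf4 had log2 differences of -0.02 in GABAergic neurons (95% interval -0.29 to 0.24), -0.23 in astrocytes (-0.55 to 0.08) and -0.20 in OPCs (-0.53 to 0.13). Ebf1 had a log2 difference of 0.59 in GABAergic neurons (95% interval -0.27 to 1.45). The widest interval was that of Ebf1 in ABCs, the cells that seal the arachnoid, at -0.88 with an interval of -2.41 to 0.64, where 1 replicate of each domain had 0 UMIs.

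**Figure D5:**
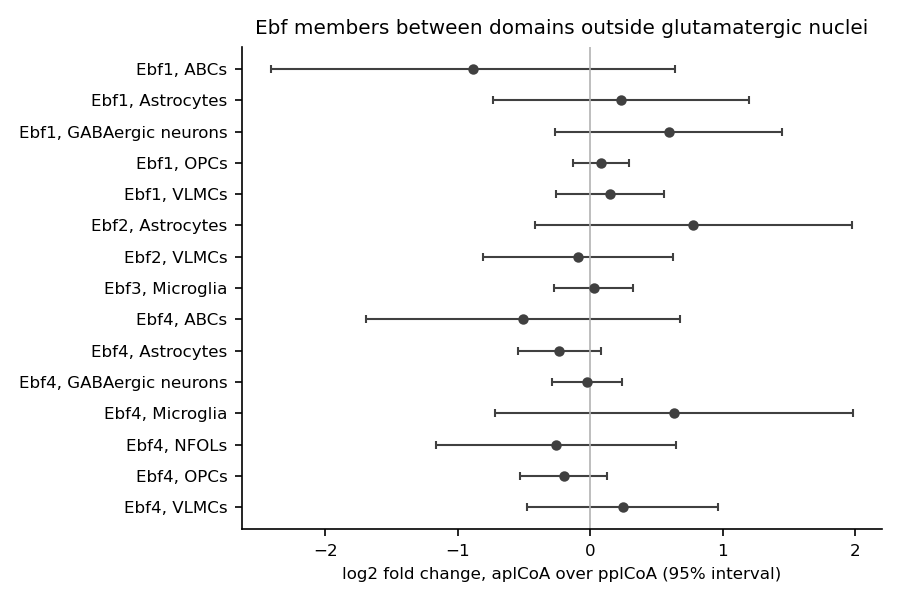
Log2 fold change of aplCoA over pplCoA for the 15 tested pairs of member and class outside glutamatergic neurons, with 95% intervals from edgeR (3 replicates a domain). Each interval includes 0, and the widest is that of Ebf1 in ABCs.

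Ebf3 in GABAergic neurons fell under the limit for a test, with 16 UMIs. Its level was 0.0672, 0 and 0 CPM in aplCoA and 1.22, 0.698 and 0.203 CPM in pplCoA, so the domains did not overlap. A UMI was found in 0.138% of these nuclei, about the share in MOLs taken as background, at a median depth of 7940 UMIs. With no count filter edgeR called it (log2 difference -3.93, adjusted p = 0.00526), among 1489 of 24968 genes called in this class. At a share near background no difference is read from it.

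Genes tied to the EBF factors by general knowledge were read from lists of 40 other genes, also chosen with results of these data known. In glutamatergic neurons 29 of the 40 were tested, and 6 were called higher in aplCoA and 2 higher in pplCoA by edgeR, beside 14.9% of all genes. Their median log2 difference was 0.24, beside 0.00 over all genes tested. Of the EBF-binding zinc fingers, Zfp521 was higher in aplCoA, with a log2 difference of 1.99 (SE 0.25, edgeR adjusted p = 0.00208), and Zfp423 was higher in pplCoA, with a log2 difference of -0.70 (SE 0.15, edgeR adjusted p = 0.0119). Zfp423 was thus lower in the domain with more Ebf1, although within cluster 3 it was higher in the nuclei with Ebf1.

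Of 7 TALE homeobox genes, which encode partners of other homeobox proteins, Meis1 was higher in aplCoA by 3.00 (SE 0.50), Pbx3 by 2.31 (SE 0.31) and Meis2 by 0.81 (SE 0.19) on the log2 scale. Nhlh2, a neuronal helix-loop-helix factor, and Calb2, which encodes calretinin, were higher in aplCoA by 1.62 (SE 0.38) and 1.01 (SE 0.23), and both are on the list of 7 Cajal-Retzius markers, of which 4 more were tested and not called. Pparg, the regulator of fat cells, was higher in pplCoA, with a log2 difference of -0.84 (SE 0.19).

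Targets of EBF factors in other tissues ranged from scarce to abundant. Of 7 B-lymphoid targets, Pax5 had 36 UMIs and Igll1 0 over all nuclei. Of the 7, 2 had enough UMIs for a test in glutamatergic neurons, 1 in microglia, 1 in VLMCs and 0 in the other classes, and edgeR called none of those tested. Omp, a marker of mature olfactory neurons, had 29 UMIs, and Ucp1, the heat-producing protein of brown fat, had 32. Other fat-cell targets were abundant, with 38608 UMIs of Ppargc1a, 17699 of Prdm16 and 7712 of Pparg. Adcy3 and Gnal, which encode signalling proteins that olfactory neurons share with other neurons, had 12043 and 36479 UMIs, with log2 differences of -0.01 and 0.15 in glutamatergic neurons. In GABAergic neurons 20 of the 40 genes were tested, of which Pbx3 was higher in pplCoA (log2 difference -0.69) and Reln and Ndnf higher in aplCoA (0.33 and 0.36). In the other 7 classes between 7 (NFOLs) and 20 (astrocytes) of the 40 genes were tested and edgeR called 0 of them, beside the shares of all genes given above.

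Genes were ranked by the likeness of their level to that of each member, as the Pearson correlation of log2(CPM + 1) over the 13 glutamatergic clusters and the 12 other classes, 25 points that share libraries and depth, among 15275 genes that reached 10 CPM in one of them. The gene most like Ebf1 was Gm12158 (r = 0.88), and that most like Ebf3 was Gm10578 (r = 0.92). Those most like Ebf2 were 4930438E09Rik (r = 0.95), Gm6878 (0.92) and 1700120O09Rik (0.91). All 5 lie inside the span of the member they resemble, on the opposite strand. Gm12158 lies at chr11:44659522-44662676 in Ebf1, 4930438E09Rik at chr14:67332042-67397742, Gm6878 at chr14:67304888-67314711 and 1700120O09Rik at chr14:67324894-67335928 in Ebf2, and Gm10578 at chr7:137234683-137242609 in Ebf3. Gm12158, Gm6878 and 1700120O09Rik overlap no exon of the member, and the others do. The study's methods name the kit's chemistry setting for counting but do not state how reads antisense to a gene were treated, so how far a gene and its antisense partner share reads was not tested.

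These transcripts were mostly seen in nuclei that also held the member. Of 442 nuclei with Gm12158, 393 had Ebf1 (88.9%). Of 342 nuclei with 4930438E09Rik, 294 had Ebf2 (86.0%). Of 52 nuclei with Gm10578, 35 had Ebf3 (67.3%). Over all nuclei the members were seen in the far smaller shares given above.

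The other genes like Ebf1 were Mphosph6 (0.82), Nenf (0.80), Zcchc17 (0.79) and Wdr61 (0.78), each highest in the pericytes, a class of 40 nuclei. Pnmal2 (0.71) and Fezf1 (0.67) completed the list for Ebf2. For Ebf3 it was completed by Cd274 (0.82), Btg4 (0.80), Trp73 (0.77) and Lag3 (0.77), of which Trp73 is a listed marker of Cajal-Retzius neurons and Lag3 was highest in microglia. Those most like Ebf4 were 3010001F23Rik (0.86), Uggt2 (0.84), Enah (0.84), 6530437J22Rik (0.83) and Gm29994 (0.83). Between the members themselves r was 0.38 for Ebf1 with Ebf2, 0.35 for Ebf2 with Ebf3 and 0.05 for Ebf1 with Ebf3. With Ebf4 it was 0.37 for Ebf1, -0.06 for Ebf2 and -0.30 for Ebf3.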

How the data were processed

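Single nuclei were sorted from pooled aplCoA and pplCoA tissue and sequenced with the 10x 3' kit (7 libraries, 3 replicates a domain). The deposited files were raw UMI counts, mapped by the authors to mm10 with Cell Ranger (5.0.0 in the submitters' processing notes, while the matrix headers name 4) with introns included. How reads antisense to a gene were treated is not stated in the sources used here. Barcodes with at least 1000 genes were kept, and outliers in UMIs and percentages and doublets were removed (52201, 51538, 50535 and 46412 barcodes in turn, 4123 doublets). Nuclei were clustered in scanpy 1.11.5 on 5000 variable genes and 50 principal components without the 4 members, and clusters were named by listed markers. UMIs were summed per class and replicate and compared with edgeR 4.0.16 (quasi-likelihood test, TMM, at least 30 UMIs a gene, at least 10 nuclei in every replicate, Benjamini-Hochberg over all genes), with DESeq2 1.42.0 as an alternative. The edgeR step was tested on simulated data. The 5 like genes of each member were named by rank of correlation. Replicates were separate pools, so p-values measure the spread between pools. Poisson and binomial intervals cover counting error only, while intervals of log2 differences come from edgeR and carry the spread between pools. The members and lists were chosen with earlier results of these data known.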

Additional observations from a re-analysis of the deposited data

Results flagged for a closer look

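Ebf3 in glutamatergic neurons was flagged because 1 replicate stood far from the rest. It was at 1.99 CPM in aplCoA replicate 1, and the next highest of the 6 replicates was at 0.610 CPM, a gap of 0.812 of the whole range, above the critical value of Dixon's test for 6 samples. This was 1 of 19 groups examined, and chance flags about 1 in 20. Without this replicate the log2 difference of aplCoA over pplCoA was -0.47.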

How the results depend on the processing

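Of 322 recomputed log2 differences for 19 pairs of member and class, 295 kept their direction and their side of the threshold. In glutamatergic neurons 2 members were called, and 1 when genes had to be seen in 10% of nuclei, a filter on either domain that Ebf1 passed through aplCoA, the domain where it is high, that removed Ebf2 before the test and under which 2024 of 9702 genes were called. Elsewhere 0 were called in the main fit. With no filter 1 was called (Ebf3 in GABAergic neurons), among 1489 of 24968 genes called in that class. With nuclei classed by their markers alone 4 were called, which were Ebf1 in astrocytes (2.65), microglia and MOLs and Ebf2 in microglia. The cause was not tested. That classing also moved levels in CPM, to 829.4 for Ebf1 in pericytes, 201 in OPCs, 214 in VLMCs and 77.5 in NFOLs, 64.8 for Ebf2 in VLMCs, 164 for Ebf3 in Cajal-Retzius neurons and 32.6 in microglia, and 23.7 for Ebf4 in astrocytes. The direction reversed in 26 of the 322, and the reversed log2 differences ran from values near 0 to larger ones. With classing by markers they were 0.75 for Ebf1 in ABCs, -0.025 in VLMCs, 0.0093 for Ebf2 in VLMCs and -0.041 for Ebf4 in glutamatergic neurons. With library 2 alone for aplCoA replicate 1 they were -0.29 for Ebf1 in GABAergic neurons, 0.17 for Ebf2 in VLMCs and -0.023 for Ebf4 in glutamatergic neurons. With a floor of 500 genes they were -0.15 for Ebf1 in GABAergic neurons, 0.021 for Ebf2 in VLMCs and -0.0020 for Ebf4 in glutamatergic neurons, and without doublet removal 0.22 for Ebf1 in ABCs. Leaving out 1 replicate gave -1.45 to 0.014 for Ebf1 in ABCs, -0.38 to 0.84 in astrocytes, -0.37 to 1.02 in GABAergic neurons and -0.057 to 0.28 in VLMCs, and -0.58 to 0.23 for Ebf2 in VLMCs. It gave -0.47 to 1.51 for Ebf3 in glutamatergic neurons and -0.069 to 0.13 in microglia, and -0.091 to 0.041 for Ebf4 in GABAergic neurons, -0.058 to 0.10 in glutamatergic neurons and -0.37 to 0.062 in OPCs. In glutamatergic neurons it gave 2.85 to 4.64 for Ebf1, highest without pplCoA replicate 1. Thinning each nucleus to 2000 UMIs moved Ebf1 in nuclei with Slc17a7 alone to 13.2 CPM, though it also changed which nuclei fell in that group. It moved co-detection with Ebf1 to 30.4% of Ebf2 nuclei and 13.5% of Ebf3 nuclei. The share for Ebf2 was 26.4% to 37.6% when 1 replicate was left out. With genes that differ between domains kept for clustering, the highest cluster levels were 509 CPM for Ebf1, 348 CPM for Ebf2 and 11.8 CPM for Ebf3.

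Replicates share numbers across domains but no stated batch. The deviations of same-numbered replicates correlated above 0.1 in all 3 pairs in microglia (0.57, 0.12 and 0.12) and VLMCs (0.31, 0.20 and 0.21), but not in glutamatergic neurons (0.10, -0.02 and 0.12), GABAergic neurons or OPCs. Every replicate correlated best with its own number in VLMCs, and not in the other 4 classes. Whether same-numbered pools shared a preparation is not stated and was not tested. The main fit did not use the numbers. With the replicate number as a block, 2 members were called in glutamatergic neurons and 0 elsewhere. Over all genes the block gave 3037 in place of 3110 calls in glutamatergic neurons and 929 in place of 1038 in GABAergic neurons. It gave 645 in place of 552 in OPCs, 576 in place of 67 in astrocytes and 295 in place of 122 in MOLs. In ABCs it gave 118 in place of 2, in VLMCs 22 in place of 3 and in microglia 19 in place of 0. NFOLs had 0 calls with and without it. Few nuclei limited the values for pericytes, endothelial cells and Cajal-Retzius neurons.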
